A study of Mus musculus with 32 samples.

Results

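The 34 genes described here cover cholesterol synthesis, its control by the transcription factor SREBP2, and cholesterol efflux in the mouse hypothalamus. They were taken by symbol, and each symbol was paired through the GRCm38 annotation with 1 Ensembl identifier among the 55401 genes in the deposited table. They comprise 20 synthesis genes, 8 genes of SREBP2 control, uptake and intracellular transport, and 6 genes of LXR signalling, efflux and clearance. All 34 were detected well enough to be tested, among 19928 genes with a normalized read count of at least 10 in at least 7 libraries. A normalized read count is the number of reads on a gene divided by the size factor of its library.

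RNA was sequenced from the whole hypothalamus of 32 male C57BL/6NTac mice, 1 library per mouse. Gpr101 is an X-linked orphan receptor gene. Of its hemizygous knockouts, 8 mice ate control diet (KO_CD) and 9 a high-fat diet (KO_HFD), and of their wild-type littermates 7 ate control diet (WT_CD) and 8 the high-fat diet (WT_HFD). The high-fat diet supplied 60% of its energy as fat and was started at 7 weeks of age. Mice were 149 or 150 days old at collection, and age followed diet. The age of 149 days was that of 6 WT_CD, 5 KO_CD, 1 WT_HFD and 1 KO_HFD mice. Only 1 WT_CD and 3 KO_CD mice were 150 days old, so diet values among mice of 150 days rest on few control-diet mice.

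Brain cholesterol is made locally, because lipoproteins of the blood hardly cross the blood-brain barrier. Synthesis runs from acetyl-CoA through mevalonate and isoprenoids to squalene, which is closed into lanosterol and trimmed to cholesterol. When sterols are low, SCAP carries SREBP2 to the Golgi, where it is cut and released to switch on the synthesis and uptake genes, and the INSIG proteins hold SCAP back when sterols are high. LXR receptors sense oxysterols and switch on the efflux transporters ABCA1 and ABCG1, which load cholesterol onto apolipoprotein E. Neurons clear cholesterol by hydroxylating it with CYP46A1. Oligodendrocytes use much of the cholesterol for myelin, and astrocytes supply it to neurons.

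Reads on genes ranged from 25.3 to 34.2 M per library. Gpr101 itself had 2471 to 3472 reads in every wild-type library, 0 in all KO_CD libraries and at most 1 in KO_HFD libraries. All 10 hypothalamic marker genes, among them Pomc, Agrp and Oxt, had reads in every library, as had all markers of neurons, astrocytes, oligodendrocytes, microglia, meninges and blood. The summed normalized count of 5 blood markers was 9586 to 15876 in WT_CD, 14620 to 39562 in WT_HFD, 9038 to 20283 in KO_CD and 14640 to 35457 in KO_HFD. That of 10 meningeal markers was 2162 to 5530, 1936 to 10094, 1860 to 8061 and 2147 to 9738 in the same order. In the test of diet averaged over genotypes, 0.336% of all genes tested were called. Of the 5 blood markers 4 were called higher, and 0 of the 10 meningeal markers were called although all 10 had values above 0. Of the other lists, 1 of 10 microglial markers was called higher and 2 of 10 hypothalamic markers were called. At an unadjusted p under 0.05, 3 hypothalamic markers were lower and 1 higher, against 5.2% and 5.88% of all genes. By the same rule 4 of 10 astrocyte markers were lower, with 0 called. The part of the hypothalamic, microglial and astrocyte markers in the values for diet was not tested. In whole tissue, fewer cells of a type and less RNA per cell cannot be told apart.

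Promoters of 28 of the 34 genes were found in a set of RefSeq promoters (build GRCm38.p6), each spanning 250 bases before to 50 after the annotated start. Abcg1, Fdft1, Fdps, Npc1, Sqle and Stard4 had no promoter in the set used here, and RefSeq itself was not searched for them. Each promoter was searched on both strands for TCACNCCAC, a form of the sterol regulatory element bound by SREBP2, and for CCAAT, the box bound by its partner NF-Y. Among the 28 genes, only Hmgcs1 had a promoter with the form TCACNCCAC, and other forms of the element were not searched. The sequences below belong to Srebf2, Mvk, Mvd and Nsdhl, which had some of the smallest p-values for diet, and to Hmgcs1. Each is printed in the direction of its gene, with matches in capitals (ATTGG is CCAAT on the other strand).
Srebf2: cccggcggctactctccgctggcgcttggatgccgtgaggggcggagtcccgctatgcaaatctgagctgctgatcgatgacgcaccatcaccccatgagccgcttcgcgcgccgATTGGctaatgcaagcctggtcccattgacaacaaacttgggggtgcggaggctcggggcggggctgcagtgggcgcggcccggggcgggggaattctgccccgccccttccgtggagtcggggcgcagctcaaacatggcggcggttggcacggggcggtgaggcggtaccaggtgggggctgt
Mvk: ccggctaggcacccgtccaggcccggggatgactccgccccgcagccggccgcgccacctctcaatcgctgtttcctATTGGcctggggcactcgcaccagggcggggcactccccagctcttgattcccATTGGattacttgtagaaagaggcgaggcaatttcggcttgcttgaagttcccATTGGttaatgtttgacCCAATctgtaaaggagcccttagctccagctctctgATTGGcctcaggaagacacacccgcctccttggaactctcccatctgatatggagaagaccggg
Mvd: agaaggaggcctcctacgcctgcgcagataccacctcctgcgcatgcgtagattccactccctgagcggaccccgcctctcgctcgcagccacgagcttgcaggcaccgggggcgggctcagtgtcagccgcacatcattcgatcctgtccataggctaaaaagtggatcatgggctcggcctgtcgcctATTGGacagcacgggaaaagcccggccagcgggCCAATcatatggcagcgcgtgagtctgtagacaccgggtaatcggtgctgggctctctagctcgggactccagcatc
Nsdhl: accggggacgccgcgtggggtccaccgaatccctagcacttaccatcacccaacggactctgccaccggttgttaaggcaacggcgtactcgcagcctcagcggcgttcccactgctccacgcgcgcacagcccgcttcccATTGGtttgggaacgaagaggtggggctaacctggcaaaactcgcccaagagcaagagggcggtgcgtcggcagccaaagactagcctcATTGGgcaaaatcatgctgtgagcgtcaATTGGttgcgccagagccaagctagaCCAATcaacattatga
Hmgcs1: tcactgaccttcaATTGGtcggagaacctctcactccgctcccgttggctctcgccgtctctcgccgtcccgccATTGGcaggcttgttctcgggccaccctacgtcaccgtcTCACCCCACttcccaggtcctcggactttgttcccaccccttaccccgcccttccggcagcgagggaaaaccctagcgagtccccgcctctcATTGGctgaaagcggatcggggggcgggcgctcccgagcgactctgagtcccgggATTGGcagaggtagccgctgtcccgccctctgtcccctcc
They lie at chr15:82147019-82147318 (plus strand), chr5:114444019-114444318 (plus), chr8:122443373-122443672 (minus), chrX:72918271-72918570 (plus) and chr13:119690101-119690400 (plus), in that order.

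The sterol element TCACNCCAC was found in 1 of the 28 genes, against 1.436% of all 27025 genes with a promoter in the table. In Hmgcs1 it began at position -137, counted from 0 at the first transcribed base. The CCAAT box was more common and was found in at least 1 promoter of 21 of the 28 genes, or 75.00%, against 41.06% of all genes. It was present in 16 of 17 synthesis genes, 4 of 6 genes of SREBP2 control and uptake, and 1 of 5 genes of LXR signalling, efflux and clearance. Mvk held 5 boxes, Nsdhl and Hmgcs1 4 each, Mvd 2 and Srebf2 1, at position -135. Dhcr7, whose p for diet was smaller than those of Mvd, Mvk and Nsdhl, is not printed above. Its promoter starting at chr7:143829964 held 2 boxes, and its other promoters held 0. A match describes these letters and is no evidence of binding, and a missing match concerns only these exact letters in this window.

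Levels were compared per length, as reads per kilobase of exon union and 1 M reads on genes (RPKM), over all 32 mice. Apoe, which encodes the main lipid carrier made by astrocytes, stood far above the rest at 740.4 RPKM (680.1 to 807 over the mice). The lipoprotein receptor gene Lrp1 followed at 45.8 RPKM (38.0 to 49.7), and Hmgcs1, which encodes HMG-CoA synthase, at 39.1 RPKM (35.8 to 45.0). The ranges of these neighbours overlapped. Srebf2 at 31.4, Cyp46a1 at 29.9, Acat2 at 29.1 and Insig1 at 28.5 RPKM formed the next step, again with overlapping ranges. Most synthesis genes lay between Pmvk at 24.5 and Hsd17b7 at 3.08 RPKM. The LXR genes differed, with Nr1h2 (LXR beta) at 12.99 RPKM (11.4 to 13.98) and Nr1h3 (LXR alpha) at 1.41 RPKM (1.05 to 1.76), and their ranges did not overlap. Fdps, which encodes farnesyl diphosphate synthase, was lowest at 0.385 RPKM (0.263 to 0.543), from 31 to 63 reads per library. The cause of its low count was not tested, and the count may not reflect its expression.

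**Figure D1:**
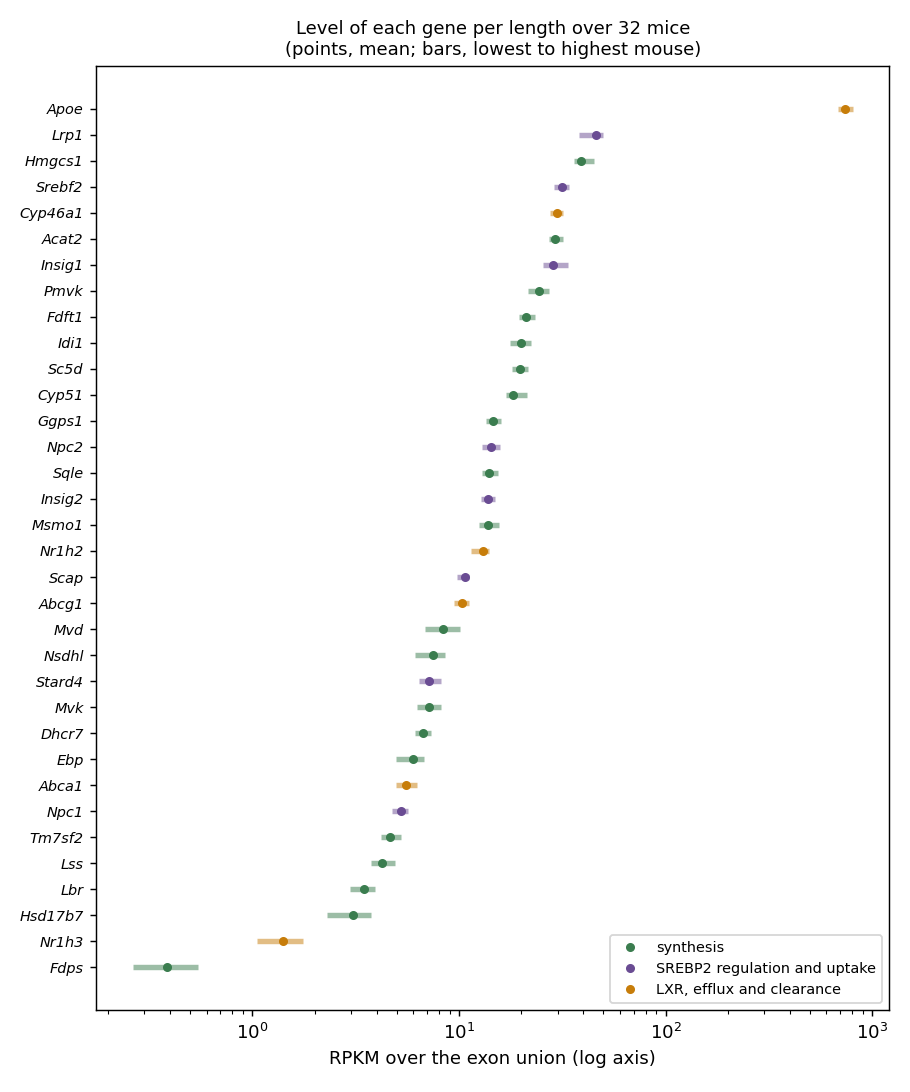
Level of each of the 34 genes in reads per kilobase of exon union and 1 M reads on genes (RPKM, log axis), with points for the mean of 32 mice and bars from the lowest to the highest mouse, coloured by role. Apoe stands alone at 740.4 RPKM, most genes lie between 3.08 and 45.8 RPKM, and Nr1h3 and Fdps are the lowest.

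Some of these counts share sequence or position with other genes. Ggps1, Fdft1, Cyp51 and Npc1 overlap Arid4b, Ctsb, Akap9 and Rmc1 on the opposite strand, and Tm7sf2 overlaps Vps51 on the same strand. The strand setting of the counting is not given in the sources used here, so reads of these pairs may not be told apart. Transcripts of Acat2 match Acat3 over 1477 bases at 97.7% identity, those of Idi1 match Gm13502 and Gm35570, those of Ggps1 match Gm5630 and those of Fdft1 match Gm6781, each at 97% identity or more. Values of these genes are uncertain to that extent. Fdps overlaps Gm43738 and Gm22935 on the same strand, which had mean normalized counts of 0.0 and 2.8. The part of this overlap in the low count of Fdps was not tested. The values of Fdps and Nr1h3 rest on few reads, and within groups their log2 values varied by an SD of 0.251 and 0.185, against 0.047 to 0.162 for the other members.

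Diet was first compared averaged over genotypes, to ask how a high-fat diet altered these genes in both kinds of mice. None of the 34 members was called at an adjusted p under 0.05 by limma, against 0.336% of all genes tested. Most values lay slightly below 0 on high-fat diet, in 23 of 34 members and in 16 of 20 synthesis genes, against 50.6% of all genes. The median log2 fold change was -0.033 over the members, -0.034 over the synthesis genes, -0.034 over the genes of SREBP2 control and uptake and 0.011 over the LXR and efflux genes, against -0.00076 over all genes. At an unadjusted p under 0.05, 8 members (23.5%) were lower, against 5.2% of all genes, and 2 (5.88%) were higher, against 5.88% of all genes. The 8 were Srebf2, Dhcr7, Mvd, Mvk, Nsdhl, Sqle, Lss and Fdft1, and the 2 were Abca1 and Insig2. Some members varied together between mice of a group, so the members are not independent of each other. Limma-voom on the recovered reads also gave 0 called, 8 lower and 2 higher. Among mice of 150 days the counts were 4 lower and 0 higher. The 2 higher members also came to 0 with age or the meningeal marker mean as a covariate or with the replicate block, and to 0 or 1 in 22 of the 32 fits that left out 1 mouse.

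**Figure D2:**
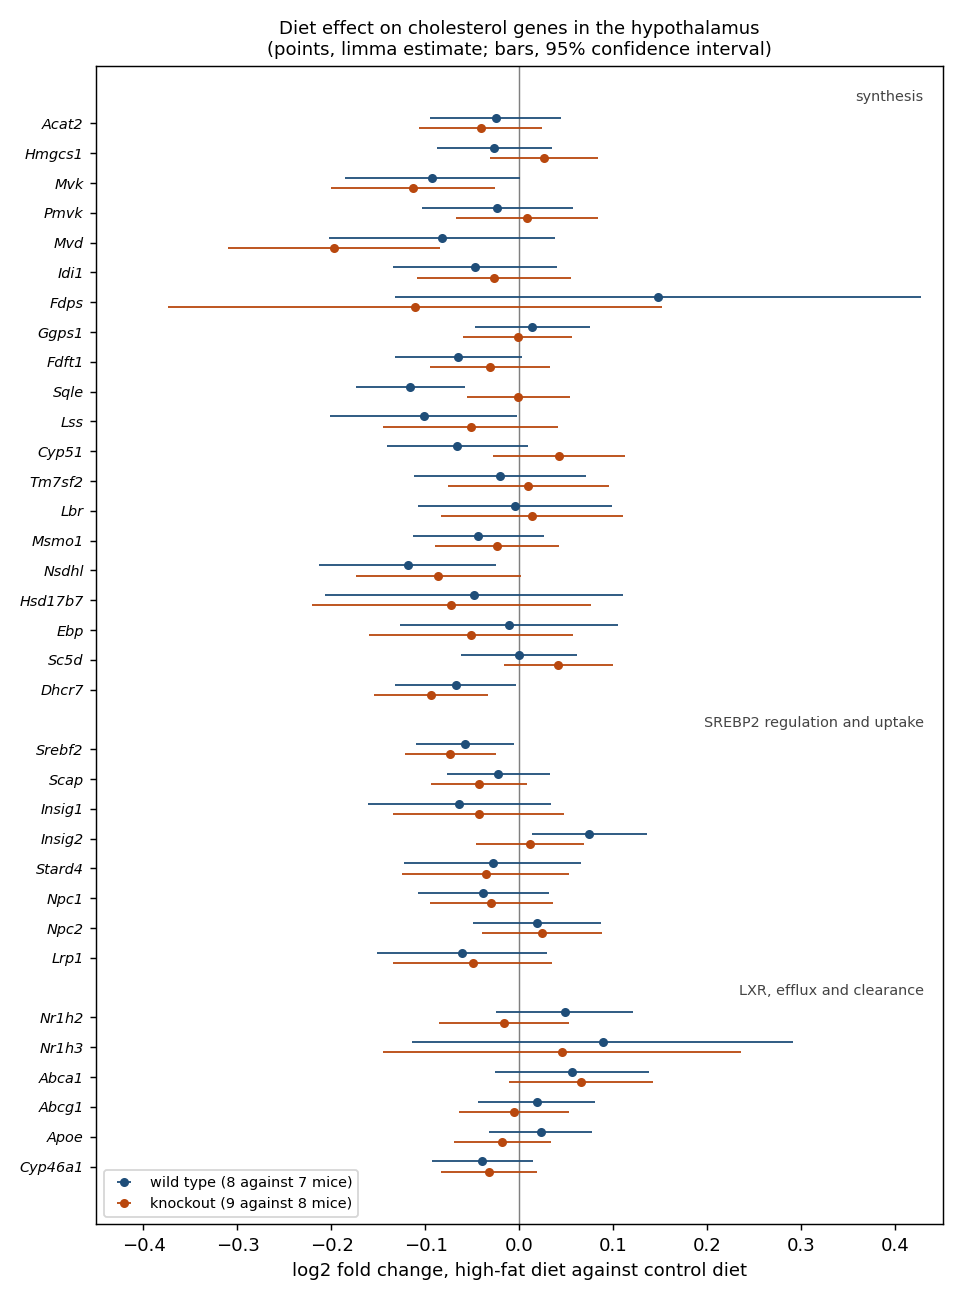
Log2 fold change of high-fat against control diet for the 34 genes by role, with points for the limma estimate and bars for its 95% confidence interval, in wild type (8 against 7 mice) and knockout (9 against 8 mice). Most estimates lie within 0.1 of 0, Mvd reaches -0.20 in knockouts, Sqle is at -0.12 in wild type and near 0 in knockouts, and Fdps has the widest intervals.

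Srebf2 (ENSMUSG00000022463, GRCm38 chromosome 15, 82147181 to 82205379, plus strand), which encodes SREBP2, had the smallest p of all members. Its normalized count was 6187, 6468 and 6897 in WT_CD (lowest, median and highest mouse) and 5930, 6162 and 6491 in WT_HFD. In knockouts it was 6258, 6507 and 6647 on control diet and 5797, 6139 and 6632 on high-fat diet. The groups overlapped, although 7 of the 9 KO_HFD mice lay below the lowest KO_CD mouse. The log2 fold change for diet was -0.066 (SE 0.018, limma adjusted p = 0.0895), a difference of -4.46% (95% interval in log2 -0.101 to -0.030). Without KO_HFD replicate 3 it was -0.073 (limma adjusted p = 0.0362), the only setting tried in which a member was called. Among mice of 150 days it was -0.053 (limma adjusted p = 0.998), where WT_CD held 1 mouse that was assumed to vary like the others. With age as a covariate it was -0.059 (limma adjusted p = 0.417).

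The other genes of SREBP2 control were less separated. Scap, whose product escorts SREBP2, had a log2 fold change of -0.033 (SE 0.019, limma adjusted p = 0.517). Insig1, an SREBP2 target that retains SCAP, had -0.054 (SE 0.033, limma adjusted p = 0.561). Insig2, its relative, went the other way at 0.043 (SE 0.021, limma adjusted p = 0.444). Insig2 counts were 1239, 1299 and 1367 in WT_CD, 1286, 1381 and 1458 in WT_HFD, 1271, 1337 and 1420 in KO_CD, and 1310, 1357 and 1421 in KO_HFD. The groups overlapped throughout, and among mice of 150 days the value was -0.0015. With age as a covariate the value of Scap was -0.0024. Uptake and transport genes had small values, of which those of Stard4 and Npc1 were -0.067 and -0.069 with age as a covariate. Stard4, which moves sterols between membranes, had -0.032 (SE 0.032, limma adjusted p = 0.770). Npc1 and Npc2, which release cholesterol from lysosomes, had -0.034 (SE 0.024, limma adjusted p = 0.623) and 0.021 (SE 0.023, limma adjusted p = 0.796). Lrp1 had -0.056 (SE 0.030, limma adjusted p = 0.509).

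Of the genes that lead to mevalonate and isoprenoids, Mvk and Mvd had the larger values. Mvk, mevalonate kinase, had counts of 523.9, 588.7 and 609.8 in WT_CD, 495.8, 540.8 and 552.9 in WT_HFD, 486.5, 548.5 and 593.3 in KO_CD, and 466.4, 504.6 and 572.9 in KO_HFD. All 8 WT_HFD mice lay below the WT_CD median and 8 of 9 KO_HFD mice below the KO_CD median, with overlap of the groups. Its log2 fold change was -0.103 (SE 0.032, limma adjusted p = 0.152), and -0.039 among mice of 150 days. Mvd (chromosome 8, 122433601 to 122443422, minus strand), which makes isopentenyl diphosphate, had the largest value of all members. Its counts were 395.1, 468.0 and 525.1 in WT_CD, 383.8, 437.8 and 488.8 in WT_HFD, 402.1, 467.2 and 519.7 in KO_CD, and 353.4, 400.8 and 462.6 in KO_HFD. All 9 KO_HFD mice lay below the KO_CD median, 5 of them below its lowest mouse. The log2 fold change of Mvd was -0.140 (SE 0.041, limma adjusted p = 0.124), or -9.24%.

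The neighbouring steps had smaller values over all 32 mice. Idi1, however, was at -0.118 and Pmvk at -0.063 among mice of 150 days, beside -0.039 for Mvk. Acat2, which starts the pathway from acetyl-CoA, had a log2 fold change of -0.033 (SE 0.024, limma adjusted p = 0.633). Hmgcs1 had -0.00034 (SE 0.021, limma adjusted p = 0.997). Pmvk, phosphomevalonate kinase, had -0.0078 (SE 0.027, limma adjusted p = 0.948). All 3 values were smaller than those of Mvk and Mvd. Idi1, which isomerizes isopentenyl diphosphate, had -0.037 (SE 0.030, limma adjusted p = 0.686). Ggps1, which makes the geranylgeranyl chain, had 0.0058 (SE 0.021, limma adjusted p = 0.949). Fdps had 0.018 with an SE of 0.095 (limma adjusted p = 0.965), an interval of -0.174 to 0.210 that spans the values of every other member.

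At the squalene step, Sqle, squalene epoxidase, had counts of 2131, 2283 and 2400 in WT_CD, 2001, 2072 and 2279 in WT_HFD, 2057, 2194 and 2264 in KO_CD, and 2087, 2175 and 2244 in KO_HFD. The WT_CD median was the highest and the WT_HFD median the lowest, with those of both knockout groups between them. The diet value averaged over genotypes was -0.059 (SE 0.020, limma adjusted p = 0.217), and -0.101 among mice of 150 days. Fdft1, squalene synthase, had counts of 2437, 2595 and 2676 in WT_CD, 2321, 2429 and 2718 in WT_HFD, 2396, 2531 and 2754 in KO_CD, and 2308, 2457 and 2740.2 in KO_HFD, with overlap throughout. Its log2 fold change was -0.048 (SE 0.023, limma adjusted p = 0.433). Lss, which closes squalene epoxide into lanosterol, had counts of 1236, 1265 and 1491 in WT_CD, 1122, 1213 and 1408 in WT_HFD, 1229.5, 1269 and 1472 in KO_CD, and 1144, 1268 and 1373 in KO_HFD. The groups overlapped, and 5 of 8 WT_HFD mice lay below the lowest WT_CD mouse. Its log2 fold change was -0.077 (SE 0.034, limma adjusted p = 0.389), and -0.041 among mice of 150 days.

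Of the genes that turn lanosterol into cholesterol, Nsdhl and Dhcr7 had the larger values. Nsdhl, a sterol dehydrogenase of the C4 demethylation complex, had counts of 596.4, 636.6 and 685.3 in WT_CD and 559.1, 588.0 and 608.2 in WT_HFD, where 6 of 8 mice lay below the lowest WT_CD mouse. In KO_CD they were 552.1, 607.2 and 661.2, and in KO_HFD 483.5, 575.0 and 617.4, with wider overlap. The log2 fold change of Nsdhl was -0.103 (SE 0.032, limma adjusted p = 0.158). Dhcr7, which catalyses the last step to cholesterol, had counts of 1053, 1149 and 1189 in WT_CD and 1044, 1078 and 1139 in WT_HFD. In knockouts they were 1039.5, 1117 and 1199.8 on control diet and 1006, 1049 and 1091 on high-fat diet, and every mouse on high-fat diet lay below the control-diet median of its genotype. The log2 fold change of Dhcr7 was -0.081 (SE 0.022, limma adjusted p = 0.0950), and -0.084 among mice of 150 days.

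The other genes of this stretch had intervals that included 0, and some values differed in fits that took age into account. Among mice of 150 days, where WT_CD held 1 mouse, Hsd17b7 was at -0.136, Lbr at 0.089 and Tm7sf2 at -0.043. With age as a covariate Cyp51 was at -0.062. Cyp51, lanosterol demethylase, had a log2 fold change of -0.012 (SE 0.026, limma adjusted p = 0.908). Tm7sf2 and Lbr, which share sterol reductase activity, had -0.0055 (SE 0.031, limma adjusted p = 0.969) and 0.0041 (SE 0.035, limma adjusted p = 0.980). Msmo1 and Hsd17b7, the partners of Nsdhl in C4 demethylation, had -0.034 (SE 0.024, limma adjusted p = 0.632) and -0.060 (SE 0.053, limma adjusted p = 0.729). All 3 genes of that complex thus had values below 0, with intervals of Msmo1 and Hsd17b7 that included 0. Ebp, the sterol isomerase, had -0.031 (SE 0.039, limma adjusted p = 0.824). Sc5d, the desaturase before Dhcr7, had 0.020 (SE 0.021, limma adjusted p = 0.779).

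Genes of LXR signalling and efflux had small diet values, most of them above 0. Abca1 had counts of 1449, 1559 and 1665 in WT_CD, 1455, 1650.0 and 1814 in WT_HFD, 1452, 1581 and 1700.0 in KO_CD, and 1451, 1675 and 1784 in KO_HFD. The lowest mice of all groups lay close together, and the highest mice were those on high-fat diet. Its log2 fold change was 0.061 (SE 0.028, limma adjusted p = 0.41), but -0.0069 among mice of 150 days and 0.040 with the mean of the meningeal markers as a covariate. Abcg1 had 0.0063 (SE 0.021, limma adjusted p = 0.946), Nr1h2 had 0.016 (SE 0.025, limma adjusted p = 0.867) and Nr1h3 had 0.067 (SE 0.069, limma adjusted p = 0.779). Apoe had 0.0021 (SE 0.019, limma adjusted p = 0.981), with an interval of -0.036 to 0.040. Cyp46a1, the neuronal hydroxylase, had -0.036 (SE 0.018, limma adjusted p = 0.465).

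In wild type, 0 of 34 members were called for diet, against 0.0251% of all genes. At an unadjusted p under 0.05, 5 (14.7%) were lower, against 3.54% of all genes, and 1 (2.94%) was higher, against 3.85% of all genes, by limma and by limma-voom alike. Synthesis genes lay below 0 in 18 of 20 cases, with a median of -0.046. Sqle had the smallest p, at -0.116 (SE 0.029, limma adjusted p = 0.214), and all 8 WT_HFD mice lay below the WT_CD median, 5 of them below its lowest mouse. Nsdhl had -0.119 (SE 0.047, limma adjusted p = 0.615), Lss -0.102 (SE 0.049, limma adjusted p = 0.660), Dhcr7 -0.068 (SE 0.032, limma adjusted p = 0.646) and Srebf2 -0.058 (SE 0.026, limma adjusted p = 0.629). The higher gene was Insig2 at 0.074 (SE 0.030, limma adjusted p = 0.623). Among mice of 150 days WT_CD held 1 mouse, which had the highest WT_CD counts of Sqle (2399.7) and Insig2 (1367.2). Against that mouse, Insig2 was at 0.0021, Srebf2 at -0.026, Lss at -0.039 and Sqle at -0.193. The count of 1 higher member came to 0 without WT_CD replicate 1. The count of 5 lower members came to 3 without WT_CD replicate 1 or WT_HFD replicate 1, and to 2 without WT_CD replicate 2 or 3 or WT_HFD replicate 8. It was 1 among mice of 150 days, 2 with the meningeal marker mean as a covariate and 3 with scaling to total reads.

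In knockouts, 0 of 34 members were called for diet, against 0.0351% of all genes. At an unadjusted p under 0.05, 4 (11.8%) were lower, against 3.47% of all genes, and 0 were higher, against 3.56% of all genes, again by both tools. Mvd had the largest value, at -0.197 (SE 0.056, limma adjusted p = 0.286), or -12.8%. Mvk had -0.113 (SE 0.043, limma adjusted p = 0.559), Dhcr7 -0.094 (SE 0.030, limma adjusted p = 0.418) and Srebf2 -0.074 (SE 0.024, limma adjusted p = 0.45). Synthesis genes lay below 0 in 14 of 20 cases, with a median of -0.029. Srebf2 and Dhcr7 were the only members with an unadjusted p under 0.05 in both genotypes. Counts of the diet groups overlapped for every member in both genotypes, and groups without overlap were rare among all genes too, at 0.0652% in wild type and 0.0552% in knockouts. Mvk was at -0.066 in knockouts of 150 days. Beside these values, all 10 astrocyte markers had values below 0 for diet in knockouts, with a median of -0.042 and 0 called, and their part in the result was not tested.

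**Figure D3:**
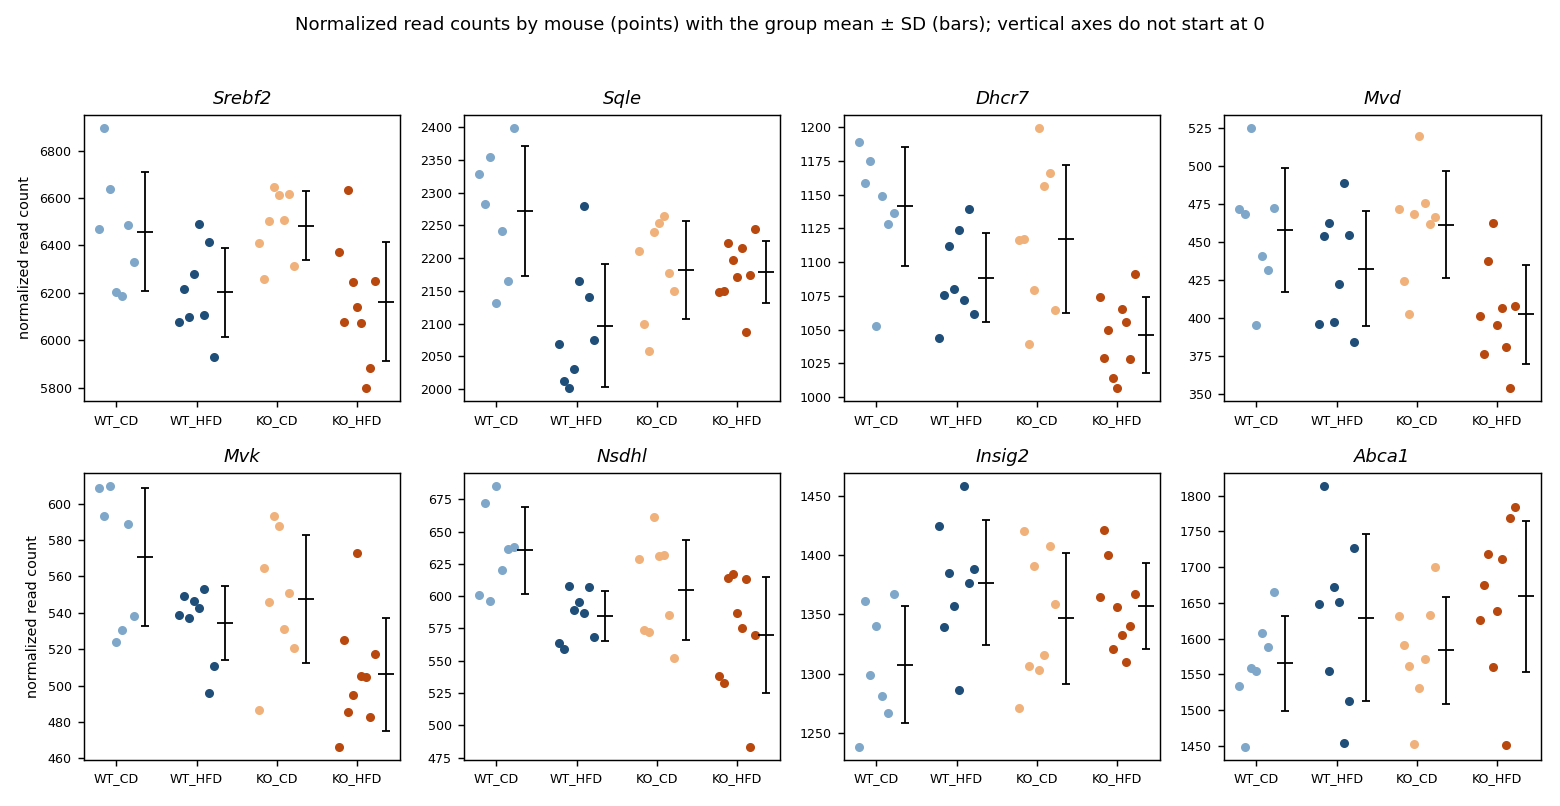
Normalized read counts of 8 members, with 1 point per mouse in WT_CD (7 mice), WT_HFD (8), KO_CD (8) and KO_HFD (9), and bars for the group mean ± SD on axes that do not start at 0. Groups overlap in every panel, Sqle is lowest in WT_HFD, and Mvd and Dhcr7 are lowest in KO_HFD.

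The difference of the diet effect between genotypes was tested as an interaction. None of the 34 members was called, against 0% of all genes, by limma and by limma-voom. At an unadjusted p under 0.05, 2 members were higher, against 1.54% of all genes, and 0 were lower, against 1.86%, again by both tools. The 2 higher came to 1 in 12 of the 32 fits that left out 1 mouse. They were Sqle, at 0.115 (SE 0.040, limma adjusted p = 0.999), and Cyp51, at 0.108 (SE 0.051, limma adjusted p = 0.999). Sqle had a diet value of -0.116 in wild type and of -0.0013 (SE 0.027) in knockouts. Insig2 followed, at -0.063 (SE 0.042, limma adjusted p = 0.999). The interval of the Sqle interaction, which is not adjusted for the number of genes, ran from 0.035 to 0.195. Sqle was far from a call, at a limma adjusted p of 0.999.

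Genotype was compared on each diet to ask whether loss of Gpr101 altered these genes. On control diet 0 of 34 members were called, against 0.00502% of all genes, and 0 had an unadjusted p under 0.05 in either direction, against 1.98% of all genes higher and 2.14% lower, by both tools. The 3 smallest p-values belonged to Sqle at -0.058 (SE 0.029, limma adjusted p = 1.00), Nsdhl at -0.073 (SE 0.047, limma adjusted p = 1.00) and Ggps1 at 0.045 (SE 0.031, limma adjusted p = 1.00). All 8 KO_CD mice lay below the WT_CD median of Sqle, 2 of them below its lowest mouse. Leaving Fdps aside, the 95% intervals of the members ran at most from -12.96% (Hsd17b7) to 22.9% (Nr1h3).

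On high-fat diet 0 of 34 members were called for genotype, against 0.00502% of all genes. At an unadjusted p under 0.05, 2 members were higher in knockouts, against 2.47% of all genes, and 0 were lower, against 2.67%, by both tools. Among mice of 150 days 1 was higher and 2 were lower, and leaving out 1 mouse gave 0 to 2 higher and 0 to 2 lower. Cyp51 had 0.076 (SE 0.035, limma adjusted p = 0.948), and 6 of 9 KO_HFD mice lay above the highest WT_HFD mouse. Sqle had 0.056 (SE 0.027, limma adjusted p = 0.948), and all 9 KO_HFD mice lay above the WT_HFD median but within its range. Dhcr7 followed at -0.057 (SE 0.030, limma adjusted p = 0.948).

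Averaged over diets, 0 of 34 members were called for genotype, against 0.00502% of all genes. By limma 2 members (5.88%) had an unadjusted p under 0.05 and were lower in knockouts, against 3.1% of all genes, and 0 were higher, against 2.62%. Limma-voom gave 1 lower and 0 higher, and leaving out 1 mouse gave 0 to 3 lower and 0 to 1 higher. Mvk had -0.069 (SE 0.032, limma adjusted p = 0.866) and Dhcr7 -0.044 (SE 0.022, limma adjusted p = 0.867). Nsdhl followed at -0.057 (SE 0.032, limma adjusted p = 0.874). The median over the members was -0.0035, against -0.0018 over all genes.

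Members were then compared between mice of the same group, after removal of the 4 group means, in 9 relations fixed together and adjusted as a family (permutation test within groups, 32 mice). All points share the size factor of their library. Sqle varied with Hmgcs1, with a Pearson r of 0.657 (permutation p = 0.00017, adjusted 0.000765) and a Spearman rho of 0.731 (permutation p = 1e-05, the smallest they can give, adjusted 9e-05). Without the 2 mice farthest from the Sqle median, r was 0.574, and within single groups it ran from 0.123 to 0.876. Sqle also varied with Idi1, with r of 0.682 (permutation p = 8e-05, adjusted 0.00072) and rho of 0.637 (permutation p = 0.00041, adjusted 0.00174). That r was 0.587 without the 2 mice and -0.0053 to 0.974 within groups. With Insig1, r was 0.555 (permutation p = 0.00172, adjusted 0.00486) and rho 0.607 (permutation p = 0.00103, adjusted 0.00232). It was 0.536 without the 2 mice and 0.2 to 0.829 within groups.

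Sqle and Srebf2 were more loosely related and did not pass. Their r was 0.351 (permutation p = 0.0543, adjusted 0.0814) and rho 0.389 (permutation p = 0.0355, adjusted 0.0533), with r of 0.388 without the 2 mice and 0.207 to 0.590 within groups. Sqle had no relation that passed with the efflux gene Abca1, at r of -0.129 (permutation p = 0.506, adjusted 0.614) and rho of -0.049 (permutation p = 0.790, adjusted 0.889) with r of -0.648 to 0.758 within groups, nor with Cyp46a1, at r of 0.127 (permutation p = 0.546, adjusted 0.614) and rho of 0.146 (permutation p = 0.451, adjusted 0.579) with r of -0.137 to 0.353 within groups. No relation passed for the efflux genes Abca1 and Abcg1 either, at r of -0.027 (permutation p = 0.889, adjusted 0.889) and rho of 0.012 (permutation p = 0.951, adjusted 0.951), with r of -0.157 to 0.264 within groups.

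Cell type markers were compared with only 2 of the genes, Apoe and Sqle. Apoe varied with the mean of 10 astrocyte markers, at r of 0.547 (permutation p = 0.00216, adjusted 0.00486) and rho of 0.608 (permutation p = 0.00058, adjusted 0.00174), with r of 0.558 without the 2 farthest mice and 0.205 to 0.704 within groups. Sqle varied with the mean of 10 oligodendrocyte markers, at r of 0.405 (permutation p = 0.0218, adjusted 0.0392) and rho of 0.397 (permutation p = 0.0272, adjusted 0.0489), but r was 0.286 without the 2 farthest mice and 0.105 to 0.655 within groups. The relation of Sqle with these markers therefore rests in part on those mice. The summed count of the oligodendrocyte markers was 130180 to 148916 in WT_CD, 128137 to 160814 in WT_HFD, 134007 to 163488 in KO_CD and 129598 to 163883 in KO_HFD. For diet 0 of the 10 were called. All 10 lay above 0 for genotype on control diet (median 0.091), and 9 lay below 0 for the interaction (median -0.084), with 0 called in either. Over 9 other settings, the oligodendrocyte mean as a covariate among them, the Sqle interaction was 0.108 to 0.130. With the oligodendrocyte mean as a covariate, the diet value of Srebf2 was -0.067 and that of Sqle was -0.060. With the mean of the meningeal markers as a covariate, these values were -0.063 and -0.052. The part of the blood markers in the values for diet was not tested.

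**Figure D4:**
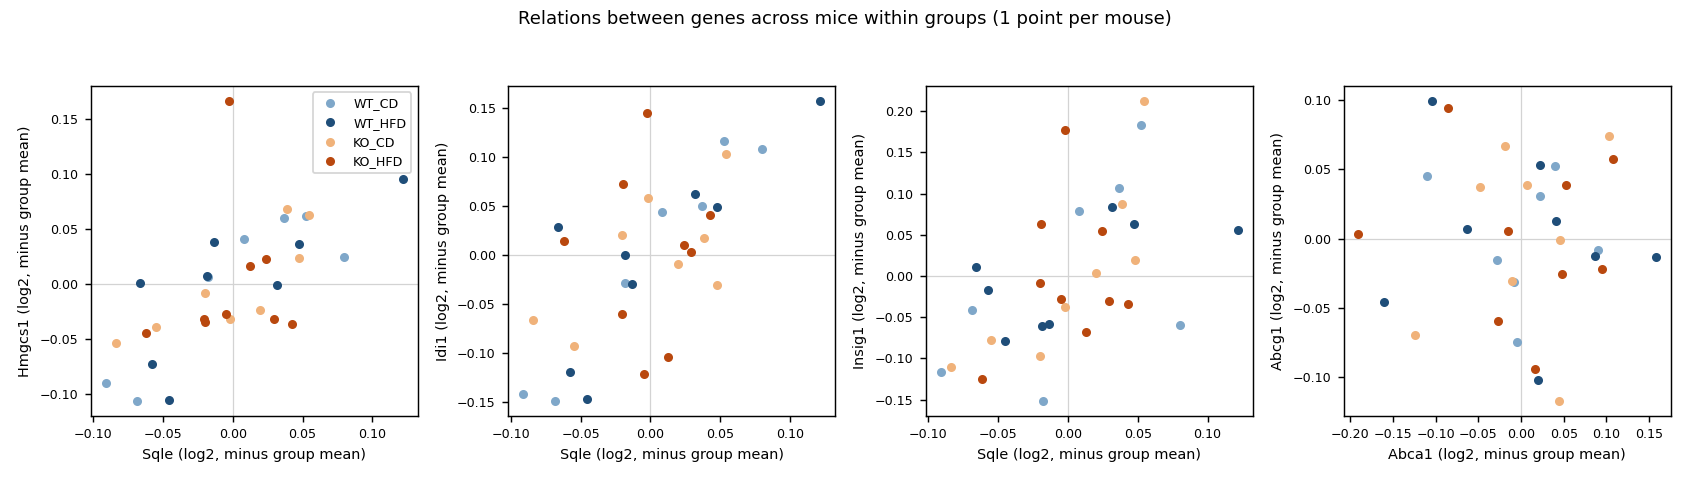
Log2 normalized counts minus the group mean, with 1 point per mouse coloured by group, for Sqle against Hmgcs1, Idi1 and Insig1 and for Abca1 against Abcg1. Pearson r over 32 mice is 0.657, 0.682, 0.555 and -0.027, and 1 KO_HFD mouse lies high in Hmgcs1, Idi1 and Insig1 at an average Sqle value.

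Beyond the 34 members, 42 other genes of sterol sensing, isoprenoid branches, uptake, esterification, efflux and oxysterols were tested from a fixed list. For diet averaged over genotypes, 0 of the 42 were called, against 0.336% of all genes. At an unadjusted p under 0.05, 5 (11.9%) were lower, against 5.2% of all genes, and 2 (4.76%) higher, against 5.88%. Their median was -0.0041, against -0.00076 over all genes. The smallest p belonged to Mylip, an LXR target that marks lipoprotein receptors for degradation, at 0.151 (SE 0.040, limma adjusted p = 0.0821). Mylip counts were 383.7, 413.5 and 469.2 in WT_CD, 407.7, 465.6 and 513.8 in WT_HFD, 355.2, 436.6 and 495.3 in KO_CD, and 431.6, 479.8 and 545.1 in KO_HFD. Its groups overlapped, with higher medians on high-fat diet in both genotypes. Without KO_CD replicate 1, KO_CD replicate 7 or WT_HFD replicate 7, Mylip passed the threshold (limma adjusted p = 0.0485, 0.0404 and 0.0449). Its value ran from 0.130 to 0.165 over the 32 fits without 1 mouse and from 0.094 to 0.158 over 10 other settings. Pggt1b, a subunit of geranylgeranyl transferase, had 0.068 (SE 0.023, limma adjusted p = 0.22). Rnf145, a sterol-responsive ubiquitin ligase, had -0.050 (SE 0.017, limma adjusted p = 0.214), and Lpcat3, a phospholipid-remodelling LXR target, had -0.087 (SE 0.034, limma adjusted p = 0.313).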

How the data were processed

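Stranded paired-end sequencing of total RNA is given in the labels' protocols. Per the submitters' processing notes, which give no roles, the tools were STAR 2.7.6a, R 4.0.2, DESeq2 1.28.1, FastQC, cutadapt 2.10 and Trim Galore 0.6.2, and the build was GRCm38. The authors deposited log2 values. How reads were counted, with which strand setting and annotation, is not given in the sources used here. Checked on the file, 100% of the values above the floor were the log2 of a whole number of reads over a size factor (within 1e-06 reads), and genes without reads were listed as the log2 of 0.1.

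From these, log2(normalized count + 1) was tested with limma 3.58.1 (statmod 1.5.0, R 4.3.3) with trend and robust options on, in a single fit of the 4 groups that held no covariate. Tests were two-sided, with Benjamini-Hochberg adjustment over 19928 genes and a threshold of 0.05. The pseudocount of 1 makes fold changes of low genes smaller. Each library is a separately labelled mouse. RPKM used the exon union of GENCODE M21, and copies were sought with BLAST+ 2.17.0 (at least 500 bases at 95% identity). Relations between mice used 100000 permutations. The test was also run on simulated data, with independent mice and the same spread setting for all genes. That run held no effect of age and so says nothing on age, which followed diet here.

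The members and all lists were chosen with earlier results of these data known. The text names all members for diet averaged over genotypes, members with an unadjusted p under 0.05 or the 3 of smallest p elsewhere, and for other pathway genes those called plus up to 2 in each direction. Alternatives were a pseudocount of 8, no filter, scaling to total reads, limma-voom on the recovered reads, age as a covariate or mice of 1 age, a replicate block, variances without robust moderation and leaving out each mouse, and, chosen after seeing the data, 2 marker means as covariates. Some genes of the pathway are not analysed here.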

Additional observations from a re-analysis of the deposited data

Results flagged for a closer look

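In 136 sets of 1 member and 1 group, 5 held a mouse that stood apart from the others of its group, or 3.676%. A rate of about 1 in 20 groups was assumed for chance. Some members varied together between mice, so the sets are not independent, and these rates were not compared by a test. Hmgcs1 was 5722 in KO_HFD replicate 8, against 4943 to 5180 in the other mice. Dhcr7 was 1053 in WT_CD replicate 4, against 1129 to 1189. Lrp1 was 20307 in KO_CD replicate 4, against 22503 to 24070. Nr1h2 was 1065 in KO_HFD replicate 9, against 1186 to 1282. Cyp46a1 was 2579 in KO_CD replicate 7, against 2751 to 2844.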

How the results depend on the processing

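Abca1 and Insig2, both at an unadjusted p under 0.05 over all mice, changed direction for diet only among mice of 150 days. WT_CD held 1 mouse of that age, which had the highest WT_CD counts of Abca1 (1664.5) and Insig2 (1367.2). The cause of the change was not tested. Of 604 values of single genes under other settings, 580 kept their direction and their side of the threshold and 24 changed direction. For diet averaged over genotypes, these were Hmgcs1 (0.0061 scaled to total reads, 0.00033 by limma-voom, 0.0046 with meningeal markers), Tm7sf2 (0.00093 scaled to total reads), Fdps (-0.086 with age as a covariate, -0.092 in mice of 150 days, -0.013 with meningeal markers), Ggps1 (-0.016 with age, -0.028 at 150 days), Sc5d (-0.025, -0.017) and Nr1h2 (-0.013, -0.032) likewise, Lbr (-0.00025 with the replicate block, -0.015 with meningeal markers), Abcg1 (-0.021 with age), Apoe (-0.012 with meningeal markers), and at 150 days Ebp (0.017), Insig2 (-0.0015), Abca1 (-0.0069) and Cyp46a1 (0.016). Sqle in knockouts was 0.0068 scaled to total reads, 0.0027 with meningeal and 0.0052 with oligodendrocyte markers. Without the 2 farthest mice, r was 0.028 for Sqle with Abca1 and -0.0012 for Sqle with Cyp46a1.

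Leaving out 1 mouse gave -0.011 to 0.0072 for Hmgcs1, -0.020 to 0.0021 for Pmvk, -0.011 to 0.058 for Fdps, -0.0039 to 0.013 for Ggps1, -0.015 to 0.0035 for Tm7sf2, -0.015 to 0.018 for Lbr, -0.0021 to 0.014 for Abcg1, -0.0045 to 0.012 for Apoe and -0.013 to 0.0065 for Sqle in knockouts.

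Counts of members at an unadjusted p under 0.05 moved as follows. For diet averaged over genotypes, the 8 lower members became 4 in mice of 150 days, and the 2 higher became 1 without a filter on low values and 0 with age, with the replicate block, in mice of 150 days or with meningeal markers. For diet in wild type, the 5 lower became 3 scaled to total reads or with the replicate block, 1 in mice of 150 days, 2 with meningeal and 8 with oligodendrocyte markers. For genotype on control diet, 0 lower became 1 scaled to total reads, with age, without robust variances or with oligodendrocyte markers. On high-fat diet, 0 lower became 1 with the replicate block or oligodendrocyte markers and 2 in mice of 150 days, and 2 higher became 1 with the replicate block, in mice of 150 days or with meningeal markers. Averaged over diets, 2 lower became 1 with a pseudocount of 8, without a filter, by limma-voom or with the replicate block. For the interaction, 2 higher became 1 with meningeal markers. Leaving out 1 mouse gave 0 to 1 lower for genotype on control diet, 0 to 2 lower and 0 to 2 higher on high-fat diet, 0 to 3 lower and 0 to 1 higher averaged over diets, 2 to 7 lower and 0 to 1 higher for diet in wild type, 0 to 1 higher for diet in knockouts, 0 to 2 higher and 0 to 1 called for diet averaged over genotypes, and 1 to 2 higher for the interaction.

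Over all genes, the 67 called for diet averaged over genotypes became 12 with age, 43 without a filter, 42 with meningeal markers and 0 in mice of 150 days. Scaling to total reads moved the share of higher genes at an unadjusted p under 0.05 from 53.0% to 65.2%. Of 45 pairs of libraries with the same replicate number, 8 had correlations over 0.1 (range -0.195 to 0.321). Of 32 libraries, 11 were closest to a library of their own number. What the replicate numbers stand for is not known, and whether they mark mice that belong together was not tested. Other strata of age were not run for genotype averaged over diets or for the interaction.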
